A study of Mus musculus with 18 samples.

Results

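RMER-named long terminal repeat (LTR) elements of the ERVK class were followed through a study of HSP90 inhibition in mouse cells. They are the repeat subfamilies whose name begins with RMER and whose class begins with LTR/ERVK, and 46 of the 1365 subfamilies in the tables met this rule. All 46 carried the class LTR/ERVK without a question mark; 41 were LTRs and 5 were internal parts, named with the ending -int. The rule rested on names alone, with no measured value, though the members were chosen with earlier results of these data known. RNA was sequenced from 6 groups of 3 libraries: neuronal progenitor cells (NPCs) given 50 nM NVP-AUY922 for 24 h and untreated NPCs, bone-marrow-derived macrophages given 500 nM for 24 h and untreated macrophages, and embryonic stem cells (ESCs) given 100 nM for 24 h and untreated ESCs. NVP-AUY922 (luminespib) inhibits HSP90, a chaperone that folds and stabilises many kinases, receptors and other signalling proteins. The ESCs were grown in 2i medium, the NPCs in N2B27 medium with EGF and FGF, and the macrophages with M-CSF, in treated and untreated groups alike. Macrophages came from BALBC/C57BL6 mice, and NPCs and ESCs had the 129S1/CASTEiJ background, so that dose, and in macrophages strain, changed with cell type and cannot be told apart from it. The tables hold repeats only, so the cell types could not be checked against marker genes.

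An LTR flanks each end of a retroviral insertion and carries its promoter and polyadenylation signal. Recombination between both LTRs of a copy often leaves a solitary LTR, which can act as a promoter or enhancer for genes nearby. ERVK elements are betaretrovirus-like endogenous retroviruses, a class that in mice includes the intracisternal A particles. The name RMER comes from a naming scheme for medium-reiterated repeats of rodents. The internal part between the LTRs is where the gag, pro and pol genes of an intact provirus lie. In ESCs many endogenous retroviruses are silenced by KRAB zinc finger proteins that recruit TRIM28 and SETDB1. The study compared RNA from such repeats between HSP90-inhibited and untreated cells.

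Each value below is the authors' estimate for 1 subfamily, summed over all its genomic copies, from 3 treated and 3 untreated libraries of 1 cell type. Errors after ± are the standard errors (SE) of the authors' deposited tables. Whether the fold changes were shrunken towards 0 is not stated. If they were, the sizes below and the differences between cell types would be affected. The tables do not say which group is the numerator of the fold change, so a subfamily is said to lie on the positive or negative side, without naming treated or untreated cells as the higher group. Nor do they say whether the positive side stands for the same group throughout. Values per library are not analysed here. The labels do not tell whether the 3 libraries of a group came from separate cultures or animals. The spread behind each p-value is therefore that between libraries and may be technical. A row that passed an adjusted p of 0.05 in its table is said to be called.

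RMER17B2 was on the negative side and called in each cell type, RMER16B and RMER16B2 were called on opposite sides in macrophages and ESCs, and RMER20B, RMER17A and RMER17A-int were the rows called on the positive side in NPCs. None of the RMER rows tested lay beyond 1 on the log2 scale in any of the 3 tables. Their range per the authors' deposited tables was -0.76 to 0.84 in NPCs, -0.73 to 0.95 in macrophages and -0.78 to 0.75 in ESCs, so that the largest differences between the groups were 1.80-fold, 1.93-fold and 1.72-fold in that order. Over all repeats, 61 of 1249 tested rows in NPCs, 53 of 1255 in macrophages and 36 of 1132 in ESCs lay beyond 1 and passed an adjusted p of 0.05 per the authors' deposited tables. Rows that did both were thus few among all repeats too. The median RMER value was 0.06 in NPCs, -0.06 in macrophages and -0.01 in ESCs, with medians over all tested rows of 0.00089, -0.01 and 0.0019. The median absolute RMER value was 0.17 in NPCs, 0.24 in macrophages and 0.16 in ESCs, beside 0.24, 0.22 and 0.18 over all tested rows. The RMER median was thus lower than that of all rows in NPCs and near it in macrophages and ESCs. Among rows with at least 50 normalised reads on average, it was 0.16, 0.24 and 0.16 in that order. Over all such rows the median was 0.21, 0.19 and 0.15. These medians were not tested against each other.

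**Figure D1:**
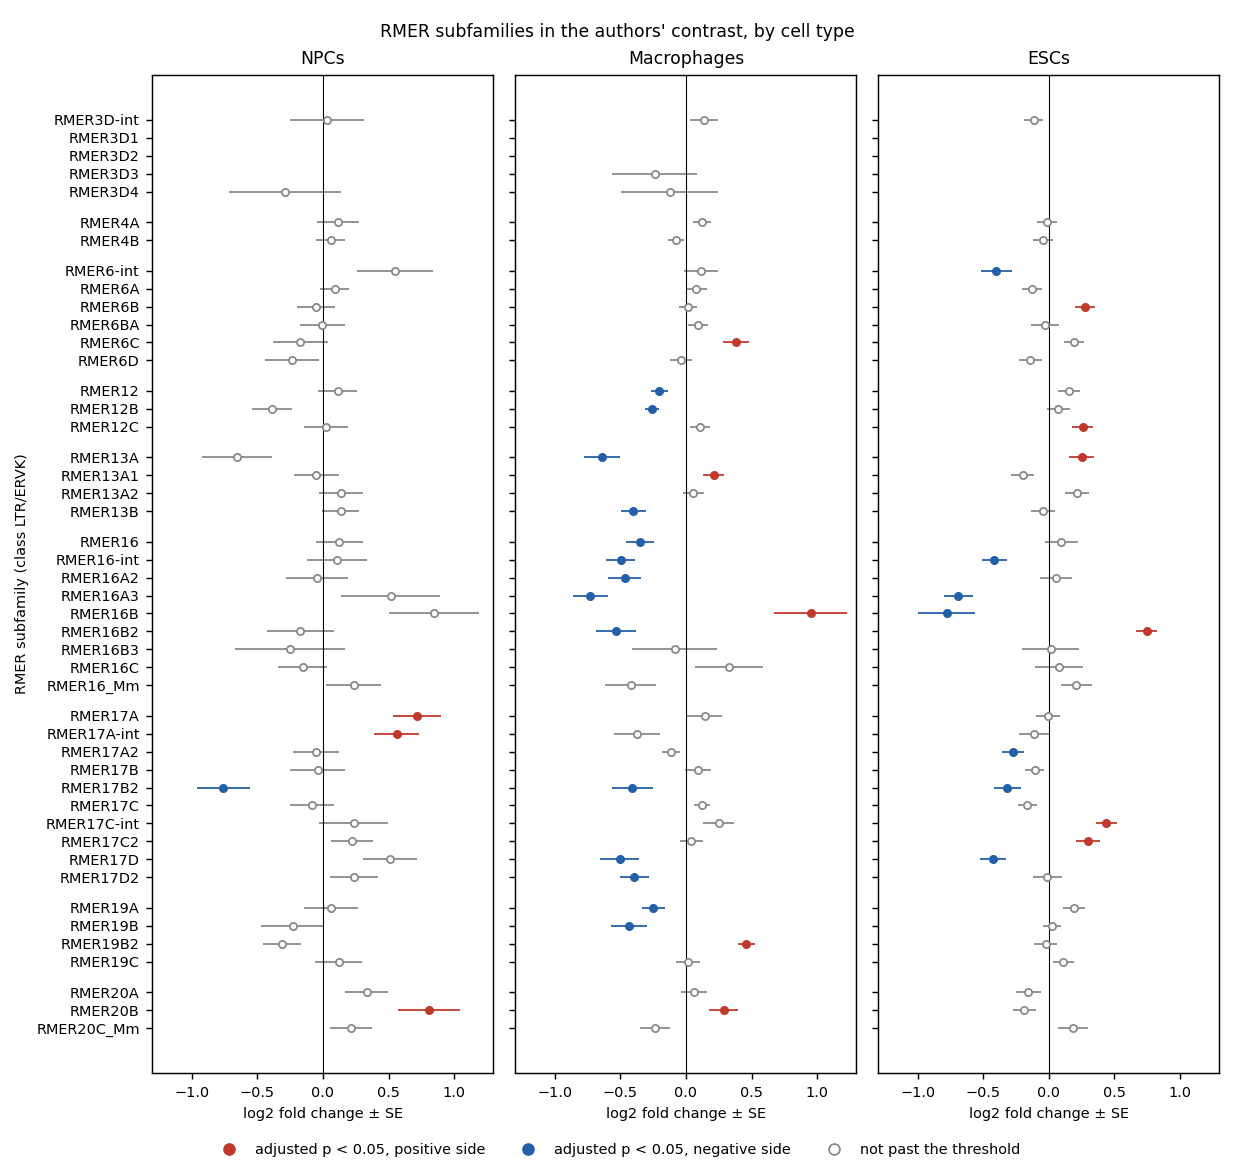
The log2 fold change of each RMER subfamily (horizontal axis) with its SE is plotted by cell type, with families separated by gaps; filled points passed an adjusted p of 0.05 on the positive (red) or negative (blue) side. RMER17B2 is on the negative side with a filled point in all 3 panels, and RMER16B stands at 0.95 in macrophages and -0.78 in ESCs.

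In NPCs 4 of 43 tested RMER subfamilies passed an adjusted p of 0.05 per the authors' deposited table, 3 positive and 1 negative. This is 9.3%, beside 11.8% of all tested rows; on the positive side it is 6.98% beside 4.96%, and on the negative side 2.33% beside 6.81%. In macrophages 19 of 44 passed, 5 positive and 14 negative, per the authors' deposited table. That is 43.2% beside 25.8% of all tested rows, 11.4% beside 13.3% on the positive side and 31.8% beside 12.5% on the negative side. In ESCs 13 of 42 passed, 6 positive and 7 negative, per the authors' deposited table, or 31.0% beside 22.2% of all tested rows, 14.3% beside 10.2% on the positive side and 16.7% beside 12% on the negative side. At an unadjusted p of 0.05 the RMER counts were 10 of 43, 23 of 44 and 19 of 42 in that order. Over all tested rows they were 257 of 1249, 436 of 1255 and 353 of 1132.

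The RMER rows held more reads than most repeats. Their median base mean, the mean of normalised reads over the 6 libraries, was 541 in NPCs, 505 in macrophages and 941 in ESCs, beside 128, 101 and 225 over all tested rows. Where the base mean reached 50 or more, 15.3% of all rows passed in NPCs, 36.3% in macrophages and 26.0% in ESCs. Of the RMER rows at that depth, 10% of 40 passed in NPCs, 45% of 40 in macrophages and 31% of 42 in ESCs. Set beside the other 239 ERVK rows, of which 20% of 235, 35.3% of 235 and 44.4% of 232 tested passed in the same order, the RMER share was lower in NPCs and ESCs and higher in macrophages; these shares were not tested against each other. The 12 RMER-named rows of other classes, which include RMER1, RMER2, RMER5, RMER10, RMER15, RMER21 and RMER30, had 0 called in NPCs, with 0 at an unadjusted p under 0.05, 2 in macrophages and 2 in ESCs. Precision differed by table: the median SE of an RMER row was 0.19 in NPCs, 0.11 in macrophages and 0.09 in ESCs and the median half-width of the 95% interval 0.36, 0.21 and 0.18. Fewer calls in NPCs therefore do not show smaller differences there.

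**Figure D2:**
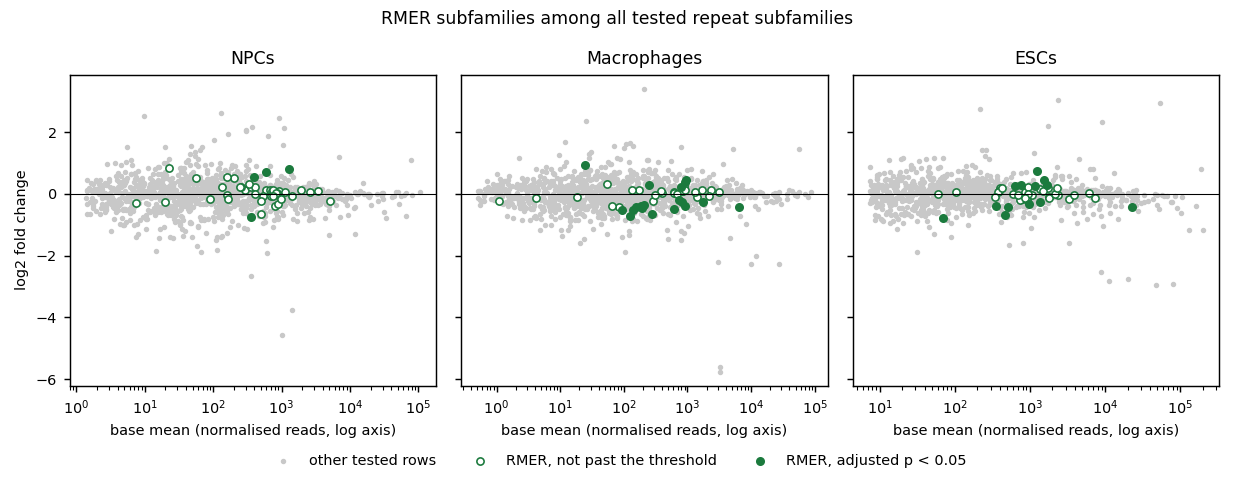
The log2 fold change of every tested repeat subfamily is plotted against its base mean on a log axis, by cell type, with RMER subfamilies in green (filled where the adjusted p was under 0.05) and all others in grey. The green points stay within 1 of 0 in each panel, as do most grey points, while some grey points reach below -5 in macrophages.

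Of the 46 rows, 27 were called in at least 1 table: 1 in all 3, 7 in a pair of tables and 19 in a single table, while 19 were called in none. The same counts over all repeats are not given here, so these describe the RMER rows alone. The row called everywhere was RMER17B2, an LTR. It lay at -0.76 ± 0.20 in NPCs, -0.41 ± 0.16 in macrophages and -0.32 ± 0.10 in ESCs per the authors' deposited tables, with adjusted p of 0.00321, 0.0358 and 0.0109. Its base means were 354, 155 and 976. It was thus on the negative side throughout, at 1.69-fold, 1.33-fold and 1.25-fold. With the tables taken as oriented alike, its difference between cell types did not pass in any of the 3 pairs. With the sign of 1 table turned, each pair taken by itself, it passed in each. The turned differences were -1.17 for NPCs and macrophages, -1.08 for NPCs and ESCs and -0.73 for macrophages and ESCs. Their adjusted p were 9.18e-05, 4.05e-05 and 0.000695 by the normal test. Turning 1 table changes only the pairs that hold it, so these 3 turned results cannot hold together. A common response and an opposite one of RMER17B2 thus cannot be told apart without the direction of each contrast.

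The RMER16 family, 8 LTRs and 1 internal part, had the highest number of calls in macrophages, at 6 of 9 tested, while 3 of 4 rows were called in each of RMER13 and RMER19. Its values ran from -0.73 to 0.95 in macrophages and from -0.78 to 0.75 in ESCs. In NPCs 0 of its 9 members passed in the authors' DESeq2 table, with 1 at an unadjusted p under 0.05; in macrophages 6 passed, 1 positive and 5 negative; in ESCs 4 passed, 1 positive and 3 negative. Of all tested rows, 11.8% were called in NPCs, 25.8% in macrophages and 22.2% in ESCs, and no family was tested against these shares. RMER16B and RMER16B2 lay on opposite sides within the macrophage and the ESC table and exchanged sides between them. RMER16B lay at 0.84 ± 0.34 in NPCs, 0.95 ± 0.28 in macrophages and -0.78 ± 0.22 in ESCs per the authors' deposited tables, with adjusted p of 0.0978, 0.00414 and 0.00281. Its base means were low, at 22.8, 24.1 and 70.1. RMER16B2 lay at -0.17 ± 0.25, -0.53 ± 0.15 and 0.75 ± 0.08 in the same order per the authors' deposited tables, with adjusted p of 0.795, 0.00308 and 4.07e-18. Its ESC value had the smallest adjusted p of any RMER row in the 3 tables. The 2 names differ by a digit only, and RMER16B3, the third of that set, lay at -0.25 ± 0.42, -0.09 ± 0.33 and 0.01 ± 0.22 and did not pass in any authors' deposited table.

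RMER16A3 was negative in both tables that called it. It lay at 0.52 ± 0.37 in NPCs, -0.73 ± 0.13 in macrophages and -0.69 ± 0.11 in ESCs per the authors' deposited tables, with adjusted p of 0.522, 5.48e-07 and 6.11e-09. RMER16A2 at -0.47 ± 0.13 and RMER16 at -0.35 ± 0.11 passed in macrophages, with adjusted p of 0.0016 and 0.00623 per the authors' deposited table. In NPCs the same LTRs lay at -0.05 ± 0.24 and 0.13 ± 0.18 per the authors' deposited table, and in ESCs at 0.06 ± 0.12 and 0.10 ± 0.13, without passing. RMER16_Mm, at -0.42 ± 0.20 in macrophages, missed the threshold with an adjusted p of 0.1 per the authors' deposited table, and RMER16C did not pass in any table. Macrophage values of the family were therefore mostly negative, with a median of -0.42 over its 9 rows, beside 0.10 in NPCs and 0.06 in ESCs.

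The internal part RMER16-int lay at 0.10 ± 0.23 in NPCs, -0.50 ± 0.11 in macrophages and -0.42 ± 0.09 in ESCs per the authors' deposited tables, with adjusted p of 0.886, 7.71e-05 and 9.80e-05. In ESCs it was the RMER row with the most reads, at a base mean of 22858, against 737 in NPCs and 615 in macrophages. As a share of the summed base mean of its own table it took 0.0353% in NPCs, 0.031% in macrophages and 0.595% in ESCs, which put it at rank 302, 327 and 37 of 1365. The ratio of its NPC share to its ESC share was 0.0594, and that of its macrophage share to its ESC share 0.052. Over the 716 rows whose base mean reached 50 in all 3 tables, the 5th to 95th percentile of these ratios ran from 0.304 to 3.38 and from 0.265 to 3.54. RMER16B2 was the other RMER row far below both ranges, with ratios of 0.133 and 0.141. These shares mix treated with untreated libraries and depend on which other repeats a cell transcribes, and no test was made of them.

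The RMER17 family was the largest, with 8 LTRs and 2 internal parts. It had 3 of 10 called in NPCs, with 2 positive and 1 negative, 3 in macrophages, all negative, and 5 in ESCs, with 2 positive and 3 negative. These are 30%, 30% and 50%, beside 11.8%, 25.8% and 22.2% of all tested rows, so the macrophage share was near that of all repeats. In NPCs, RMER17A and RMER17A-int were called on the same side. RMER17A lay at 0.72 ± 0.19 in NPCs, 0.14 ± 0.13 in macrophages and -0.0046 ± 0.09 in ESCs per the authors' deposited tables, with adjusted p of 0.0021, 0.48 and 0.977. RMER17A-int lay at 0.56 ± 0.17, -0.37 ± 0.18 and -0.11 ± 0.12 in the same order per the authors' deposited tables, with adjusted p of 0.0144, 0.108 and 0.585. An LTR and its internal part can share reads of 1 transcript, so these are not independent results. The ratio of the NPC to the macrophage share of the summed base mean was 3.26 for RMER17A and 5.76 for RMER17A-int. It was also high for RMER20B, at 4.99, and RMER16C, at 2.96. The 5th to 95th percentile over 716 rows ran from 0.404 to 2.46. RMER17C-int, at 0.390, RMER17A2, at 0.366, and RMER20A, at 0.245, lay below that range.

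RMER17D was negative in macrophages and ESCs. It lay at 0.51 ± 0.21 in NPCs, -0.51 ± 0.15 in macrophages and -0.43 ± 0.10 in ESCs per the authors' deposited tables, with adjusted p of 0.0875, 0.00547 and 0.000307. RMER17D2 lay at 0.24 ± 0.18, -0.39 ± 0.11 and -0.01 ± 0.11 in that order per the authors' deposited tables and passed in macrophages, with an adjusted p of 0.00199. RMER17C-int, at 0.23 ± 0.26 in NPCs, 0.25 ± 0.12 in macrophages and 0.44 ± 0.08 in ESCs, passed in ESCs with an adjusted p of 2.82e-07 per the authors' deposited table. In ESCs the LTR RMER17C2 was on the same side as this internal part, at 0.30 ± 0.09, whereas RMER17C, the LTR with the most reads in the family, lay at -0.16 ± 0.07. Their adjusted p were 0.00838 for RMER17C2 and 0.0902 for RMER17C per the authors' deposited table, so that RMER17C was not called. RMER17A2 at -0.28 ± 0.08 passed in ESCs with an adjusted p of 0.00688 per the authors' deposited table. RMER17B did not pass in any table.

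**Figure D3:**
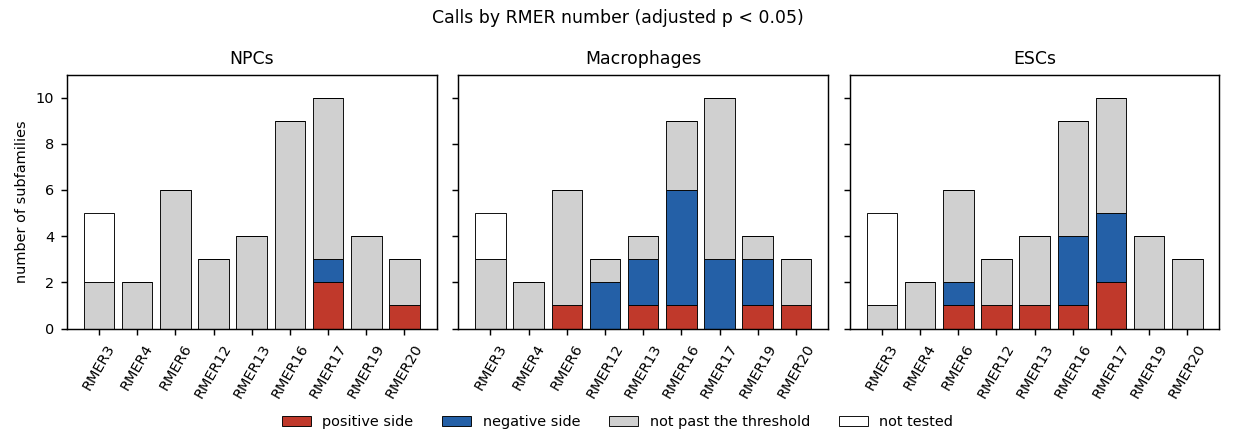
Bars give the number of subfamilies in each RMER family by outcome at an adjusted p of 0.05 (red positive, blue negative, grey not past the threshold, white not tested), by cell type. In macrophages 5 of the 9 RMER16 rows are blue, and in NPCs colour appears in the RMER17 and RMER20 bars alone. Of all tested repeats, 11.8% were called in NPCs, 25.8% in macrophages and 22.2% in ESCs.

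The RMER13, RMER12 and RMER19 families, LTRs without an internal row of their own number, were called more often in macrophages than in the other tables by count. Over all tested rows the share called was also highest in macrophages, at 25.8% beside 22.2% in ESCs and 11.8% in NPCs. RMER13A lay at -0.65 ± 0.27 in NPCs, -0.64 ± 0.14 in macrophages and 0.25 ± 0.10 in ESCs per the authors' deposited tables, with adjusted p of 0.0978, 4.25e-05 and 0.0456. It was thus called on opposite sides in macrophages and ESCs, and the ESC call is close to the threshold: with the adjustment taken over every row that has a p, its adjusted p was 0.0538. RMER13B lay at -0.40 ± 0.09 and RMER13A1 at 0.21 ± 0.08 in macrophages, with adjusted p of 0.000148 and 0.0349 per the authors' deposited table. RMER13A2 did not pass in any table. RMER12B and RMER12 were negative in macrophages, at -0.26 ± 0.05 and -0.20 ± 0.06, with adjusted p of 7.92e-06 and 0.008 per the authors' deposited table, and RMER12C was positive in ESCs at 0.26 ± 0.08, with an adjusted p of 0.00827. These RMER12 differences are small, at 1.20-fold, 1.15-fold and 1.20-fold, and rest on base means of 1735, 739 and 1186.

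In macrophages the RMER19 LTRs split between the sides. RMER19B2 lay at -0.31 ± 0.15 in NPCs, 0.46 ± 0.07 in macrophages and -0.02 ± 0.09 in ESCs per the authors' deposited tables, with adjusted p of 0.181, 7.33e-11 and 0.891. Its macrophage value had the smallest adjusted p of the RMER rows in that table. RMER19B lay at -0.23 ± 0.24, -0.44 ± 0.14 and 0.02 ± 0.07 in the same order per the authors' deposited tables and passed in macrophages, with an adjusted p of 0.00906. It had the most reads of all RMER rows in NPCs and in macrophages, at base means of 5060 and 6471. RMER19A was also negative in macrophages, at -0.25 ± 0.09 with an adjusted p of 0.0184 per the authors' deposited table, and RMER19C, at 0.02 ± 0.09 there, did not pass. No RMER19 row passed in NPCs or ESCs in the authors' DESeq2 tables, where 1 had an unadjusted p under 0.05 in each.

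RMER20B was the RMER row with the largest called value in NPCs. It lay at 0.81 ± 0.24 in NPCs, 0.29 ± 0.11 in macrophages and -0.19 ± 0.09 in ESCs per the authors' deposited tables, with adjusted p of 0.00952, 0.0452 and 0.116. Its share of the summed base mean was 0.0627% in NPCs, 0.0126% in macrophages and 0.0193% in ESCs. RMER20A and RMER20C_Mm did not pass in any table.

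In the RMER6 family 2 rows were called in ESCs, 1 in macrophages and 0 in NPCs. These are 33.3%, 16.7% and 0% of its 6 rows, beside 22.2%, 25.8% and 11.8% of all tested rows. RMER6B, at 0.27 ± 0.08, and RMER6-int, at -0.40 ± 0.12, passed in ESCs with adjusted p of 0.00211 and 0.00523 per the authors' deposited table. In macrophages RMER6C passed at 0.38 ± 0.10, with an adjusted p of 0.000856 per the authors' deposited table. In ESCs it lay on the same side at 0.19 ± 0.08, with an adjusted p of 0.053 per the authors' deposited table, and the difference between both cell types did not pass, with an adjusted p of 0.295 by the normal test. In NPCs 0 of 6 passed in the authors' DESeq2 table, with 0 at an unadjusted p under 0.05; RMER6-int had the largest value there, at 0.55 ± 0.29. RMER6A, the member with the most reads (base means 3361, 3121 and 7385 in NPCs, macrophages and ESCs), lay at 0.09 ± 0.11, 0.08 ± 0.08 and -0.13 ± 0.07 per the authors' deposited tables and did not pass. RMER6D and RMER6BA did not pass in any table.

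The RMER4 LTRs had some of the narrowest intervals among these rows and were not called. RMER4B lay at 0.06 ± 0.11 in NPCs, -0.07 ± 0.06 in macrophages and -0.04 ± 0.07 in ESCs per the authors' deposited tables, with 95% intervals from -0.16 to 0.28, -0.19 to 0.04 and -0.19 to 0.10. RMER4A lay at 0.11 ± 0.16, 0.12 ± 0.07 and -0.01 ± 0.08 in the same order per the authors' deposited tables. The RMER3 family holds the rows that could not be judged. RMER3D1 was listed at a base mean of 0 in all 3 tables and RMER3D2 in NPCs and macrophages. RMER3D2, RMER3D3 and RMER3D4 in ESCs and RMER3D3 in NPCs had a p without an adjusted p, at base means of at most 5.35. RMER3D3 in macrophages carried an SE of 0.32 at a base mean of 1.10; so small an error at so few reads can arise where fold changes are shrunken towards 0; whether they were is not stated. RMER3D-int, which unlike those LTRs was well covered, lay at 0.03 ± 0.28 in NPCs, 0.14 ± 0.11 in macrophages and -0.12 ± 0.07 in ESCs per the authors' deposited tables and did not pass.

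To compare cell types, a subfamily's log2 fold change in 1 table was subtracted from that in another and divided by the SE of the difference. The normal p was two-sided and adjusted by Benjamini and Hochberg's method over all rows tested in both tables. This takes the tables as oriented alike, and the result with 1 table turned is given at the end. Each pair was turned by itself. Turning 1 table changes only the pairs that hold it, so turned results for all 3 pairs cannot hold together. For macrophages minus ESCs, 18 of 42 RMER rows passed, 6 above 0 and 12 below; this is 42.9% beside 23.7% of all 1124 rows. For NPCs minus ESCs, 9 of 42 passed, 7 above and 2 below, or 21.4% beside 12.6% of 1126 rows. For NPCs minus macrophages, 6 of 43 passed, 5 above and 1 below, or 14% beside 12.4% of 1222 rows. With a t distribution of 8 degrees of freedom in place of the normal, 5, 0 and 1 of the RMER rows passed in the same order, with 19, 11 and 9 at an unadjusted p under 0.05. The 5 were RMER16B2, RMER13A, RMER16B, RMER19B2 and RMER19A, and the 1 was RMER19B2. The share of all rows that passed with the t distribution is not given here.

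With the tables taken as oriented alike, members of the RMER16 family differed as follows. RMER16B differed by 1.73 ± 0.35 between macrophages and ESCs and by 1.62 ± 0.41 between NPCs and ESCs, with adjusted p of 1.70e-05 and 0.00112 by the normal test. RMER16B2 differed the other way, by -1.28 ± 0.17 and -0.92 ± 0.27, with adjusted p of 4.86e-12 and 0.00738 by the same test. RMER16A3 in NPCs stood 1.24 ± 0.40 above macrophages and 1.20 ± 0.39 above ESCs, with adjusted p of 0.0182 and 0.0209. In each of these the value in the first cell type and that in the other were on different sides, so the differences depend on the orientation. With 1 table turned, RMER16B differed by 0.17 and RMER16B2 by 0.21 for macrophages and ESCs, and by 0.07 and 0.57 for NPCs and ESCs, and none of these passed. RMER16A3, turned, did not pass for either NPC pair but differed by -1.42 for macrophages and ESCs, with an adjusted p of 3.91e-15. RMER13A differed by -0.89 ± 0.17 for macrophages minus ESCs and -0.90 ± 0.28 for NPCs minus ESCs, with adjusted p of 2.80e-06 and 0.0159. RMER19B2 lay 0.48 ± 0.11 higher in macrophages than in ESCs, with an adjusted p of 0.00011, and differed by -0.77 ± 0.16 for NPCs minus macrophages, with an adjusted p of 5.40e-05.

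**Figure D4:**
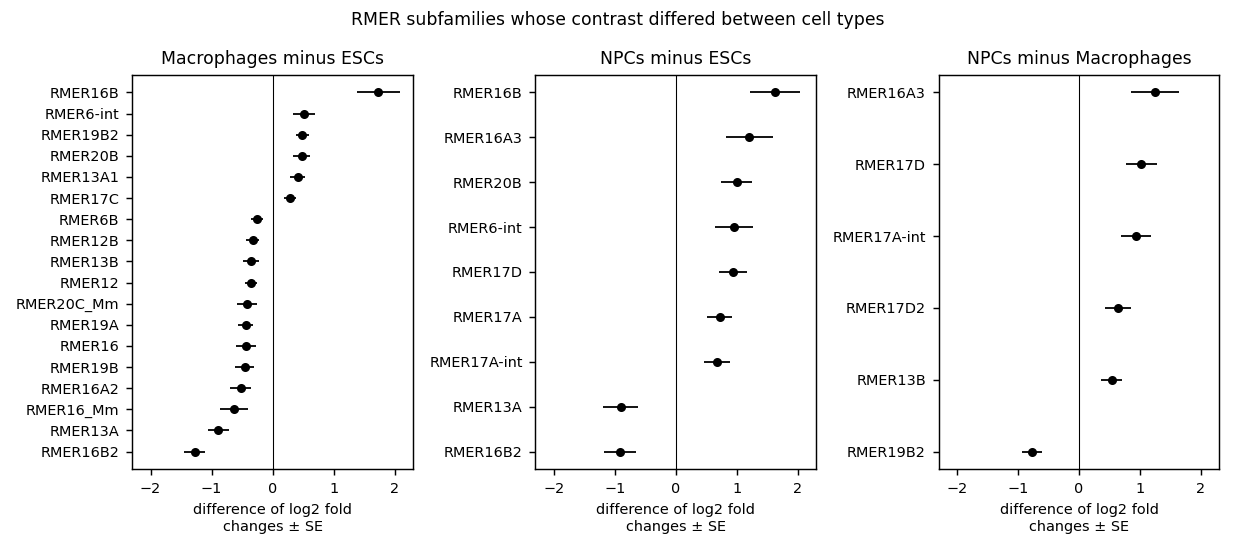
Points give the difference of the log2 fold changes between cell types with its SE, for each RMER subfamily past an adjusted p of 0.05 in that pair, ordered by size. RMER16B2 stands lowest at -1.28 in macrophages minus ESCs, and RMER16B highest at 1.73.

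With the same orientation, the NPC values of RMER17D and RMER17A-int lay above those in both other cell types; with 1 table turned neither row passed in an NPC pair. RMER17D differed by 1.02 ± 0.26 for NPCs minus macrophages and 0.94 ± 0.23 for NPCs minus ESCs, with adjusted p of 0.00154 and 0.000734 by the normal test. RMER17A-int differed by 0.94 ± 0.25 and 0.67 ± 0.21 in these pairs, with adjusted p of 0.00304 and 0.0144. RMER17A differed by 0.72 ± 0.21 for NPCs minus ESCs, with an adjusted p of 0.00613. RMER20B and RMER6-int differed by 0.995 ± 0.25 and 0.95 ± 0.31 in that pair, with adjusted p of 0.00145 and 0.0239.

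The Pearson correlation of the log2 fold changes over RMER rows was -0.36 for NPCs and ESCs (42 rows), 0.23 for NPCs and macrophages (43 rows) and -0.12 for macrophages and ESCs (42 rows), beside 0.13, 0.35 and 0.20 over all rows tested in both. Related rows can share reads, and each table was normalised by itself, so these are descriptions with no test. Turning 1 table would reverse the sign of each correlation that involves it. These signs therefore do not tell common from opposite responses. Counting rows called in both macrophages and ESCs, whatever their NPC result, 4 were negative in both macrophages and ESCs, 2 were negative in macrophages and positive in ESCs, 1 was positive in macrophages and negative in ESCs, and 0 were positive in both. The 4 were RMER16A3, RMER16-int, RMER17D and RMER17B2, the last of which was also called in NPCs. RMER20B was called on the positive side in NPCs and macrophages. RMER13A and RMER16B2 were the 2 that were negative in macrophages and positive in ESCs, and RMER16B the 1 with the reverse. Such counts over all repeats are not given here, so no pattern particular to RMER rows is read from them. Each pair was then taken with the sign of 1 table turned, which cannot hold for all 3 pairs together. So turned, 14 of 42 RMER rows would differ between macrophages and ESCs, beside 314 of all 1124 rows. For NPCs and ESCs 3 of 42 would differ, beside 182 of 1126. For NPCs and macrophages 6 of 43 would differ, beside 243 of 1222. Once turned, the RMER share was thus below that of all rows in both NPC pairs. Of these RMER rows, 4, 1 and 0 passed the threshold in either orientation, and the same counts over all repeats are not given here. Of the 4, RMER6B had a difference of opposite sign once turned, at 0.29.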

How the data were processed

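Per the labels' protocols, DNase-treated RNA was made into TruSeq stranded mRNA libraries. The submitters' processing notes name DESeq2, featureCounts, deepTools, Bowtie2, Trim Galore and TopHat2 2.0.13 with the build mm10, in no stated role. Per the file headers, each deposited table is a DESeq2 result over 1365 repeat subfamilies. Its base mean is a signal the authors computed, the mean of normalised reads over libraries. The log2 fold change with its SE (log2), the Wald statistic (a score), the p-value and the adjusted p-value are also those the authors deposited. The statistic equalled log2 fold change over SE, and the adjusted p a Benjamini-Hochberg adjustment, in all 1249, 1255 and 1132 tested rows of NPCs, macrophages and ESCs (relative tolerance 1e-06). The sources used here give neither how reads matching several copies were assigned nor whether strand was used; related subfamilies, and genes that hold a copy, can share reads with a row. Depth per library is likewise not given, so precision is read from the SEs alone; mm10 represents C57BL/6, another strain than that of the NPCs and ESCs.

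The planned branch for comparison tables was used: calls are the authors' adjusted p under 0.05 over the whole table, with no SD or n of their own. Shares, intervals (95%, normal) and differences between cell types were computed with Python 3.11.15, pandas 2.3.3 and SciPy 1.17.1. The difference test was also run on simulated normal values, with the deposited SEs taken as exact. That run checks the calculation and cannot show the effect of SEs estimated from few libraries. Rows were named if called in a table (up to 25 each) or between cell types, or if they had the most reads of their RMER number. The members and lists were chosen with earlier results of these data known. Alternatives were a stricter threshold, other adjustments and base mean filters, centring, leaving out internal parts, a turned sign and a t distribution. Sequences of these repeats are not used here.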

Additional observations from a re-analysis of the deposited data

Results flagged for a closer look

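The subfamilies below differed between cell types past an adjusted p of 0.05 by the normal test of the difference; values are differences of log2 fold changes. For NPCs minus macrophages they were RMER16A3 (1.24), RMER17D (1.02), RMER17A-int (0.94), RMER17D2 (0.63), RMER13B (0.54) and RMER19B2 (-0.77). For NPCs minus ESCs they were RMER16B (1.62), RMER16A3 (1.20), RMER20B (0.995), RMER6-int (0.95), RMER17D (0.94), RMER17A (0.72), RMER17A-int (0.67), RMER13A (-0.90) and RMER16B2 (-0.92).

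For macrophages minus ESCs the rows above 0 were RMER16B (1.73), RMER6-int (0.52), RMER19B2 (0.48), RMER20B (0.48), RMER13A1 (0.41) and RMER17C (0.28). Those below 0 were RMER16B2 (-1.28), RMER13A (-0.89), RMER16_Mm (-0.63), RMER16A2 (-0.52), RMER19B (-0.46), RMER16 (-0.44), RMER19A (-0.44), RMER20C_Mm (-0.42), RMER12 (-0.36), RMER13B (-0.35), RMER12B (-0.33) and RMER6B (-0.26). Cell type changed together with dose, and for macrophages with strain, and these cannot be told apart. Each pair was also taken by itself with the sign of 1 table meaning the opposite group. For macrophages minus ESCs, 4 of the 18 rows (RMER13B, RMER19B, RMER19B2 and RMER6B) would still pass. So would 1 of the 9 (RMER17A) for NPCs minus ESCs and 0 of the 6 for NPCs minus macrophages. Other rows would pass in place of the rest, among them RMER17B2 in each pair, though all 3 pairs cannot be turned together. The same overlap over all repeats is not given here, so no trait of RMER rows is read from it.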

How the results depend on the processing

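The counts of called RMER rows stayed within 1.5 times of those reported under every alternative run. They were 3 to 4 in NPCs, 15 to 19 in macrophages and 10 to 14 in ESCs. At an adjusted p under 0.01, 3 of 43, 15 of 44 and 11 of 42 passed in that order. Of all tested rows, 95 of 1249, 237 of 1255 and 184 of 1132 passed at that threshold. Turning the sign of 1 table gave 3 differing RMER rows of 42 for NPCs minus ESCs, beside 182 of all 1126 rows. An adjusted p under 0.01 left 3, 5 and 9 differing rows for NPCs minus macrophages, NPCs minus ESCs and macrophages minus ESCs, and a t distribution with 8 degrees of freedom 1, 0 and 5. The same counts of differing rows over all repeats are not given here. Since the t distribution has wider tails and no other input changed, the differences between cell types depend on treating the standard errors as well known. The side of a called value could hardly turn: apart from a turned sign, only centring changes a log2 fold change. Centring shifts it by the table median, -0.01 in macrophages and less in the others. RMER6C in ESCs passed (Benjamini-Hochberg adjusted p 0.0452) where rows under a base mean of 50 were left out. No paired analysis was possible because the tables hold no values per library; for the same reason leaving out replicates was not run. Rows with few reads had wide intervals, such as -1.08 to 0.57 for RMER16B3 in NPCs.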
